A study of Mus musculus with 2 samples.

Results

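The replication-dependent histone genes were taken as every gene whose symbol began with H2ac, H2bc, H3c or H4c followed by a number, together with the linker histone genes H1f1 to H1f5. This rule found 67 of the 34290 genes listed: 5 linker H1, 18 H2A, 19 H2B, 12 H3 and 13 H4 genes. H2bc26, counted among the H2B genes, is named as a pseudogene in GENCODE (Hist3h2bb-ps). Single cells came from tumours of mice engrafted with MC38 cells, a mouse colon carcinoma line, at 21 days. One group of mice carried MC38 cells with a vector control and the other carried MC38 cells in which the phospholipid scramblase TMEM16F, encoded by Ano6, had been knocked out (TMEM16F KO); the mice were untreated, and each group was 1 library. Only the engrafted cells were edited, so the immune cells described here were those of the host. The sources used here do not give the strain and number of the mice or how the knockout line was cloned. With 1 library per group there was no test between groups, and each interval given is a 95% one that covers counting error alone. PCR and animal-to-animal variation are not in them.

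Replication-dependent histones package newly made DNA, and their transcripts rise when a cell enters S phase and are destroyed when replication ends. Their mRNAs are unusual in ending in a conserved stem-loop, bound by the stem-loop binding protein SLBP, in place of a poly(A) tail. Many of these genes can also give transcripts with a poly(A) tail when the cell reads past the stem-loop, which is known from differentiated and arrested cells. The libraries were primed with poly-dT at the 3' end, so they recorded the part of the histone mRNA that had a poly(A) tail or an internal run of A, and not the total.

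The stem-loop is shown first because a histone mRNA that ends at it has no poly(A) tail for such priming. In the GENCODE annotation of GRCm38 (mm10), all 67 genes were found, 53 of them on chromosome 13, 10 on chromosome 3, 3 on chromosome 11 and 1 on chromosome 6. A stem-loop of 6 paired bases on each side of a 4-base loop lay in an annotated transcript of 43 genes, in 6 forms. The forms are printed 5' to 3' on the transcript strand, with the paired stem in capitals and the loop in lower case.
26 genes, among them H2ac24, H2ac8, H1f2, H1f4 and H2ac25: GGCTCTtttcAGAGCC
7 H4 genes, among them H4c4, H4c8 and H4c16: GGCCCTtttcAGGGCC
5 genes, H2bc12, H3c7, H3c6, H3c3 and H2bc3: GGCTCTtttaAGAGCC
H4c9 and H4c14: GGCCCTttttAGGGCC
H4c11 and H4c2: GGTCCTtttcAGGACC
H2ac20: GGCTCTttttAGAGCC
The H4 forms differed in the stem from those of the H1, H2A, H2B and H3 genes, and the form of H4c11 and H4c2 differed in the stem from the other H4 forms as well. Forms with the same stem differed in the last base of the loop. No stem-loop was found in the annotated transcript of the other 24 genes, which says only that the annotated transcript did not hold those letters.

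The genes also differed in what was annotated past the stem-loop. H2ac24 (chr13:21833026-21833507, minus strand) ended 3 bases after it, and its transcript held a run of 12 A. H2ac8 (chr13:23570517-23571220, minus strand) went on for 151 bases, H4c4 (chr13:23581598-23582735, plus strand) for 770 and H1f2 (chr13:23738808-23740367, plus strand) for 840. H2ac25 (chr11:58954685-58956830, plus strand) went on for 1643 bases and overlapped Trim17 on the same strand, so reads of these genes may have been split between them. H1f4 (chr13:23620629-23622558, minus strand) overlapped H2bc6 on the same strand in the same way. Family copies are near identical: 62 of the 67 transcripts shared at least 1 stretch of 50 bases with another member, and H2ac24 shared 93.1% of its 50-base stretches. Counts of single members are therefore uncertain wherever the counting could not place a read on 1 copy, whereas H1f5, H1f1, H2bc18, H2bc21 and H4c16 shared no such stretch.

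Promoters of 3 members that behaved differently in the data are shown from RefSeq (GRCm38.p6), as the 250 bases before the annotated start, read 5' to 3' on the gene's strand. Capitals mark matches on either strand to the octamer core ATTTGCA, the CCAAT box CCAAT and the TATA box TATAAA, motifs long described in histone promoters. H2ac8 and H1f5 had a larger share of their UMIs in cells with S phase markers than genes as a whole, and H1f2 a smaller one.
H2ac8, chr13:23571221-23571470, minus strand: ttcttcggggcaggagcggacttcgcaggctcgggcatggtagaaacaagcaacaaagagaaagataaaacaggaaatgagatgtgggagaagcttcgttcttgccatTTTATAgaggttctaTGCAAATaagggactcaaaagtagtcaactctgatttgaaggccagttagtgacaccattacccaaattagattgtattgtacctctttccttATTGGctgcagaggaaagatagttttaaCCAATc
H1f5, chr13:21780626-21780875, minus strand: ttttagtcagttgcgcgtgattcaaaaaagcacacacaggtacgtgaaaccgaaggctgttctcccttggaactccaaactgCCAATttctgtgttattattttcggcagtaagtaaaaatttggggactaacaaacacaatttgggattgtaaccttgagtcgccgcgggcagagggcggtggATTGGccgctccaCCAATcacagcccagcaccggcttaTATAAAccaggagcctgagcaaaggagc
H1f2, chr13:23738557-23738806, plus strand: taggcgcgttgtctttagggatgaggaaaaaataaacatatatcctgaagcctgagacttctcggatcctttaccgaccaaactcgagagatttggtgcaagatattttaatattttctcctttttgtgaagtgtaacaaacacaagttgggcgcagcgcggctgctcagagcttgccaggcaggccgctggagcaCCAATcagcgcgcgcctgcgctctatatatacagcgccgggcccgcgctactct
The H2ac8 window held all 3 motifs, that of H1f5 held CCAAT and TATAAA, and that of H1f2 held CCAAT alone. Other members broke this order. The H2ac24 window also held CCAAT alone, with 93.2% of that gene's UMIs in cells with S phase markers. Those of H2ac6 and H2bc8, with 73.5% and 73.7%, held all 3 motifs. Windows were available for 57 members, 58 windows in all. The octamer core was in 13 of the 58 (22.4%), against 3.56% of 32851 promoter windows of the same length. Of the 13, 6 were among 17 H2A windows and 7 among 15 H2B windows, and the H1, H3 and H4 windows held none. Windows of neighbouring genes on opposite strands can overlap, so that the same site counts in both windows. The octamer core was such a shared site for H2ac8 and H2bc8, H2ac12 and H2bc12, and H2ac1 and H2bc1. The TATAAA match of H2ac8 lay on the opposite strand and was also that of the H2bc8 window. CCAAT was in 48 windows (82.8%, against 33.8% of all), including every H1, H2A and H2B window but 3 of 11 H4 windows. TATAAA was in 28 windows (48.3%, against 12.4% of all). A match is a description of the letters and not a measured binding site.

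The vector control library held 5253 barcodes and 46338994 UMIs and the TMEM16F KO library 5993 barcodes and 49777630 UMIs. After filtering, 5028 vector control and 5688 TMEM16F KO cells were kept, with median UMI counts of 6020 and 5995, and 10 barcodes occurred in both libraries. The share of kept cells under 2000 UMIs was 20.5% in the vector control library and 14.6% in the TMEM16F KO library. A cluster of shallow barcodes held 450 cells of the vector control (median depth 1004 UMIs) and 47 of the TMEM16F KO library (median depth 4607 UMIs), of which 396 and 45 were classed as phagocyte-like. Ano6 was read at 33.3 CPM (UMIs of the gene per 1000000 UMIs of all genes) in the TMEM16F KO library and 28.7 CPM in the vector control, which checks nothing about the knockout since nearly all cells were of the host and a 3' tag can lie outside the edited site. A UMI of Ptprc (CD45), which marks blood-derived cells, was found in 80.8% of TMEM16F KO and 68.6% of vector control cells, against 20.8% and 23.3% of the cells classed as stroma-like. No cell was classed as epithelial, and the epithelial tumour markers summed to 18.7 and 30.2 CPM.

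Fewer histone transcripts were read in the TMEM16F KO library than in the vector control library. The 67 genes summed to 31154 UMIs in TMEM16F KO cells and 49773 UMIs in vector control cells, or 679 CPM (672-687) and 1157 CPM (1147-1167), a ratio of 0.587 (0.579-0.595). These totals include 48 and 60 stroma-like cells, with 1007 and 3677 histone UMIs (1768 and 2228 CPM). The median depths of the stroma-like cells were 7238 and 24810 UMIs. H2A transcripts stood lowest, at 182 and 424 CPM (ratio 0.428, 0.417-0.440). H2B transcripts were nearest to level, at 146 and 180 CPM (ratio 0.811, 0.784-0.838). Linker H1 transcripts were read at 203 and 300 CPM (ratio 0.676), H3 at 40.7 and 71.4 CPM (ratio 0.570) and H4 at 109 and 183 CPM (ratio 0.596). Histone subunits, which are needed in matched amounts in the nucleosome, were thus read at unequal levels and unequal ratios; these counts leave out every transcript without a poly(A) tail or a run of A.

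Of the 67 genes, 62 had at least 1 UMI and 58 had at least 50. H2ac1, H2ac19, H2bc1, H2bc23 and H3c14 had none in either library. A count of 0 allows up to 3 UMIs, but only of reads that could be placed on 1 copy. H2ac19 and H2bc23 shared 100% and 98.5% of their 50-base stretches with other members, so their 0 need not mean absence. For H2bc1, H3c14 and H2ac1 the share was 38.2%, 34.8% and 2.35%. The 5 genes with the most UMIs held 51.1% of all histone UMIs and the 20 highest held 86.0%. Of the 62 genes with at least 20 UMIs, 34 were at least 1.5-fold lower in the TMEM16F KO library and 0 at least 1.5-fold higher. Over all 16051 genes with at least 20 UMIs, 8.62% were that much lower and 8.16% that much higher. The median log2 ratio was -0.73 over the histone genes and 0.02 over all genes. No test between the libraries was possible, so counts past a fold of 1.5 describe these 2 libraries.

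**Figure D1:**
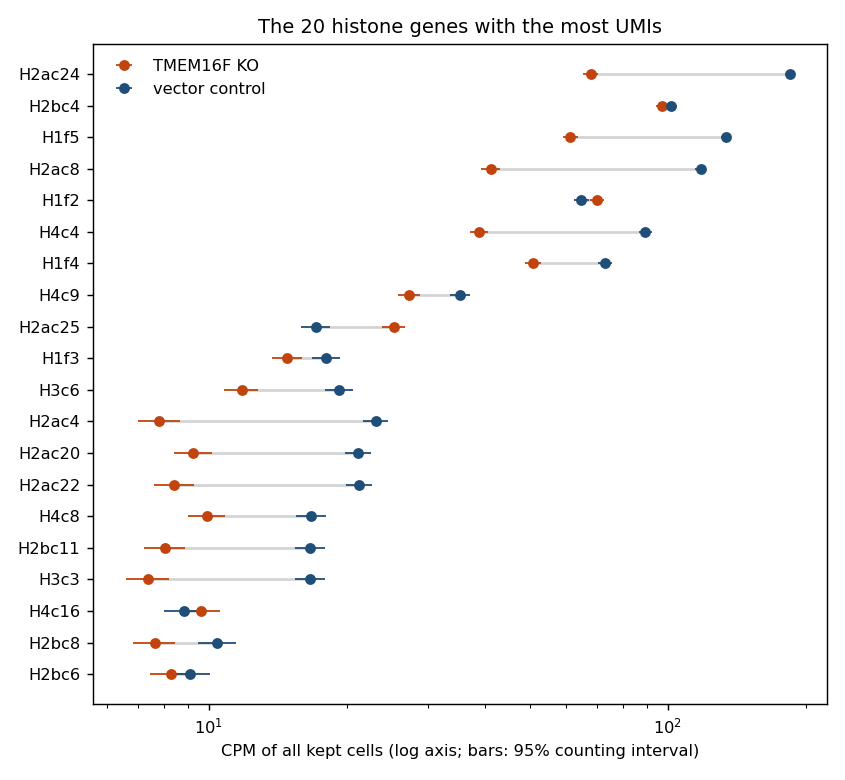
CPM of the 20 histone genes with the most UMIs in all kept cells of the TMEM16F KO library and the vector control library, on a log axis, with 95% counting intervals as bars. H2ac24 was at 67.9 and 184 CPM and H2bc4 at 96.9 and 102 CPM, so that the gap between the libraries differed widely among members.

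Among the H2A genes, H2ac24, the member with the most UMIs, gave 3112 UMIs in TMEM16F KO and 7927 in vector control cells (67.9 and 184 CPM, ratio 0.368, 0.353-0.384). H2ac8 was read at 41.1 and 118 CPM (ratio 0.348, 0.330-0.367), H2ac4 at 7.78 and 23.1 CPM (ratio 0.337, 0.298-0.381), H2ac22 at 8.40 and 21.2 CPM (ratio 0.395) and H2ac20 at 9.25 and 21.1 CPM (ratio 0.438). All 5 encode core H2A and were lower in the TMEM16F KO library beyond counting error. H2ac25 went the other way, with 1160 and 736 UMIs, 25.3 and 17.1 CPM (ratio 1.48, 1.35-1.62). The lowest ratio of any member with at least 50 UMIs was that of H2ac12, at 0.213 (0.096-0.430), on only 10 and 44 UMIs.

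H2bc4 carried most of the H2B signal, with 4445 UMIs in TMEM16F KO and 4367 in vector control cells, 96.9 and 102 CPM (ratio 0.955, 0.915-0.996). H2bc6 stood at 8.26 and 9.11 CPM (ratio 0.907, 0.785-1.05) and H2bc8 at 7.61 and 10.4 CPM (ratio 0.731). H2bc11 was read at 8.02 and 16.6 CPM (ratio 0.483, 0.425-0.549). The H2B genes therefore ran from level to lower by over 2-fold, and the near-level family total followed the level of its most abundant member.

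The linker histones, which bind where DNA enters and leaves the nucleosome, divided in the same way. H1f5 was read 2809 and 5753 times, at 61.3 and 134 CPM (ratio 0.458, 0.438-0.479), whereas H1f2 was read 3208 and 2787 times, at 70.0 and 64.8 CPM (ratio 1.08, 1.03-1.14). H1f4 lay between them at 50.9 and 73.0 CPM (ratio 0.697, 0.661-0.736), and H1f3 stood at 14.8 and 18.0 CPM (ratio 0.823). H1f1, outside the 20 highest, had a ratio of 0.564 (0.483-0.657). The 5 H1 genes thus covered a ratio from 0.458 to 1.08.

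H4 genes encode the same core protein from many copies. H4c4 was read at 38.8 and 89.3 CPM (ratio 0.434, 0.410-0.460), H4c9 at 27.3 and 35.3 CPM (ratio 0.774) and H4c8 at 9.90 and 16.7 CPM (ratio 0.593). H4c16, on chromosome 6 and away from the other copies, was read at 9.62 and 8.83 CPM (ratio 1.09, 0.947-1.25). Among H3 genes, H3c3 was read at 7.37 and 16.6 CPM (ratio 0.444) and H3c6 at 11.8 and 19.2 CPM (ratio 0.613). Copies for the same type of histone thus differed by more than their counting error. The 4 genes above a ratio of 1 among the 58 with at least 50 UMIs were H1f2, H2ac25, H4c16 and H2bc27 (ratio 1.20, 0.939-1.55).

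S phase was read from 30 genes of DNA replication, such as the Mcm helicase subunits and Pcna, and a cell with a UMI of at least 3 of them was called an S marker cell. Histone levels followed the number of these markers in both libraries, but only above 5. In cells with no marker the summed histone level was 487 CPM in TMEM16F KO and 522 CPM in vector control cells, and in cells with 3 to 5 markers it was 405 and 475 CPM. It was 779 and 803 CPM with 6 to 10 markers and 1718 (1688-1749) and 2589 (2561-2617) CPM with over 10. The number of markers seen also moves with depth: the median cell had 2570 and 1816 UMIs with no marker and 16426 and 17544 UMIs with over 10 markers. Cells with over 10 markers were 7.09% (403 of 5688) of TMEM16F KO cells and 12.8% (646 of 5028) of vector control cells. They held 55.7% of all histone UMIs, against 22.4% of the UMIs of all genes.

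**Figure D2:**
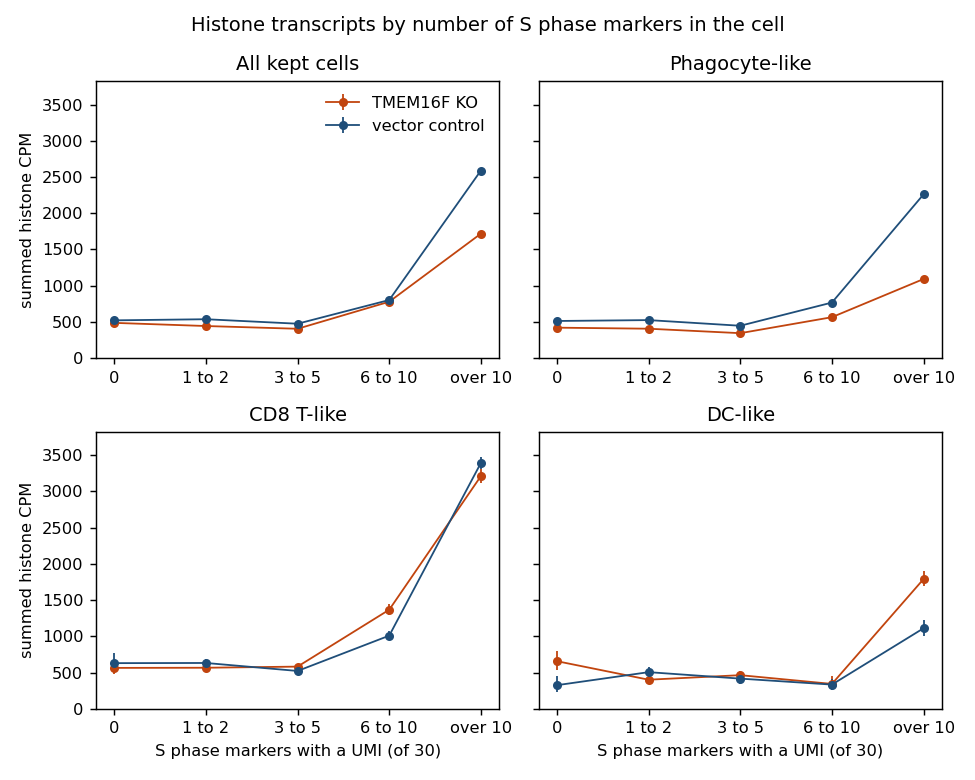
Summed histone CPM of cells with 0, 1 to 2, 3 to 5, 6 to 10 and over 10 of the 30 S phase markers, in TMEM16F KO and vector control cells, for all kept cells and for 3 cell classes, with 95% counting intervals as bars. The level stayed between 405 and 537 CPM up to 5 markers in all kept cells and reached 1718 and 2589 CPM with over 10.

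The difference between the libraries was mostly in S marker cells. Their histone level was 842 and 1435 CPM (ratio 0.587, 0.577-0.596), and that of the other cells was 452 and 534 CPM (ratio 0.847, 0.821-0.875). Within the cells with over 10 markers the ratio was 0.664 (0.650-0.678). There were thus fewer such cells in the TMEM16F KO library, and those present had a lower summed histone CPM. With every cell thinned to 2000 UMIs, 11.8% of 4858 TMEM16F KO cells and 19.0% of 3999 vector control cells still had 3 or more markers; 830 and 1029 shallower cells were left out. Without thinning these shares were 37.9% and 43.7%. After thinning, the ratio was 0.698 over all cells and 0.828 in the smaller set of S marker cells that still passed.

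Members differed in where their UMIs sat. S marker cells held 63.5% of the UMIs of all genes and 80.5% of all histone UMIs. For H1f5 the share was 95.4% (94.9-95.8), for H2ac4 95.3%, for H2ac8 94.4%, for H2ac24 93.2% (92.7-93.6) and for H3c3 95.6%. In all, 16 members with at least 50 UMIs had 90% or more of them in S marker cells, 8 of them H2A genes. The share of all genes that pass this cut is not given here. At the other end, 7 members lay below the share of all genes: H2bc4 (62.0%, 61.0-63.1), H1f2 (56.8%, 55.5-58.0), H2ac25 (54.2%), H4c16 (57.2%), H2ac18 (63.2%), H2bc27 (61.9%) and H3c15 (55.2%). Their CPM was then no higher in S marker cells than in the others; for H1f2 it was 0.754 times and for H1f5 11.8 times that of the other cells. Cells with no S marker drew 20.3% of their histone UMIs from H2bc4 and 17.2% from H1f2, whereas cells with over 10 markers drew 18.8% from H2ac24, 15.9% from H1f5 and 12.1% from H2ac8.

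The members with the larger share in S marker cells were the ones with the lower ratio between the libraries. Over the 58 members with at least 50 UMIs, the share and the log2 ratio had a Spearman correlation of -0.907 and a Pearson correlation of -0.909. This is a description across genes read from the same cells and libraries: the vector control library held more cells with many markers, so the 2 measures are tied by construction. The 19 members with the lowest shares (54.2-73.7%) had a median ratio of 0.823, the 19 in the middle 0.593 and the 20 with the highest shares (88.5-97.6%) 0.450. Within the cells with over 10 markers, the median ratio over the 58 members was 0.747. Of the 58, 48 were below 1, and the share of all genes below 1 in those cells is not given here. There H2ac24 had a ratio of 0.550 (0.523-0.578), H2ac8 0.532, H1f5 0.705 (0.669-0.742), H2bc4 0.864 and H1f2 1.03 (0.901-1.17). The gap between members was thus smaller than over all cells but still present.

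Transcripts annotated far past the stem-loop had lower shares in S marker cells, a grouping chosen after the values were seen. The 17 members annotated for 300 bases or more past it had a median share of 73.5% and a median ratio of 0.774. The 22 with under 300 bases had 86.6% and 0.497, and the 19 with no stem-loop in the annotated transcript had 88.8% and 0.553. The groups overlapped: H4c4, with 770 bases past its stem-loop, had a share of 85.0%, and H2bc27, with under 300, had 61.9%. H2bc4 belonged to the group with no stem-loop in the annotated transcript. H2ac24 and H2ac23 both held a run of 12 A, but H2ac23 had 22 UMIs where H2ac24 had 11039. H2ac24 and H2ac23 shared 93.1% and 93.5% of their 50-base stretches with other members. The part of read placement in this gap was not tested.

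**Figure D3:**
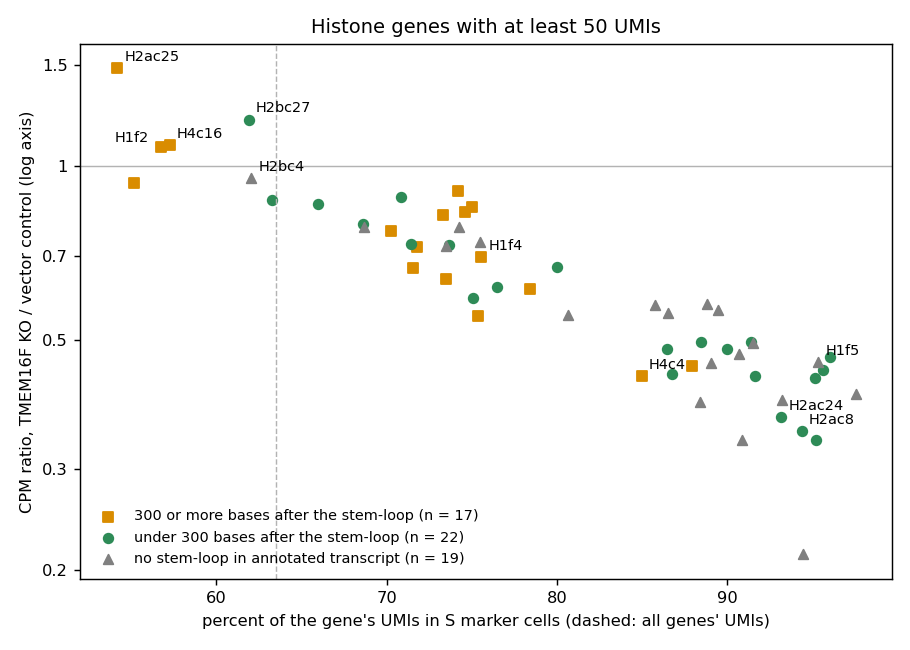
Share of each gene's UMIs in S marker cells against its CPM ratio, TMEM16F KO over vector control (log axis), for the 58 members with at least 50 UMIs, marked by the annotated bases past the stem-loop; the dashed line is the 63.5% share of all genes. Points run from H2ac25 (54.2%, ratio 1.48) down to members above 90% with ratios under 0.5.

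The annotation held 14 pairs of genes on opposite strands that point away from each other, with starts 173 to 660 bases apart. Some pairs were alike while others differed. H2bc13 and H2ac13 had shares of 89.1% and 90.7% in S marker cells and ratios of 0.456 and 0.473. H2ac11 and H2bc11 had ratios of 0.430 and 0.483. H2ac15 and H2bc15 had shares of 88.8% and 91.5% and ratios of 0.578 and 0.495. Other pairs stood further apart. H2ac24 and H2bc24 lie 236 bases apart and had 11039 and 186 UMIs, with 93.2% and 80.6% of them in S marker cells. H2ac8 and H2bc8, 176 bases apart, had 6963 and 797 UMIs, with shares of 94.4% and 73.7% and ratios of 0.348 and 0.731. In the pair of H2ac6 and H2bc4, 251 bases apart, the H2B gene led, with 540 against 8812 UMIs. In these last 3 pairs the counts were far from equal, in libraries where only part of the mRNA was captured. H2ac24 and H2bc24 shared 93.1% and 93.2% of their 50-base stretches with other members. For H2ac8 and H2bc8 the shares were 43.2% and 49.7%, and for H2ac6 and H2bc4 11.6% and 29.4%. The part of read placement in these gaps was not tested.

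Cells were classed from marker genes of T cells, NK cells, phagocytes (macrophages and monocytes), dendritic cells (DC) and others, and a class is a range of marker scores and not a pure type. In 5 of the 6 classes with at least 50 cells per library the histone level was lower in TMEM16F KO cells, and in DC-like cells it was higher. Phagocyte-like cells, the largest class, were read at 492 (484-500) CPM in 2883 TMEM16F KO cells and 981 (969-992) CPM in 2967 vector control cells (ratio 0.502, 0.491-0.512). CD8 T-like cells were read at 1298 and 1671 CPM in 939 and 701 cells (ratio 0.777, 0.754-0.801). Treg-like cells were read at 1016 and 2090 CPM (234 and 166 cells, ratio 0.486), other T-like cells at 672 and 1420 CPM (366 and 240 cells, ratio 0.473) and NK-like cells at 778 and 1705 CPM (262 and 120 cells, ratio 0.456). DC-like cells were read at 904 (862-948) and 597 (557-639) CPM in 155 and 120 cells (ratio 1.52, 1.39-1.65). Whether this ratio differed between classes was not tested, as each class came from the same 2 libraries.

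**Figure D4:**
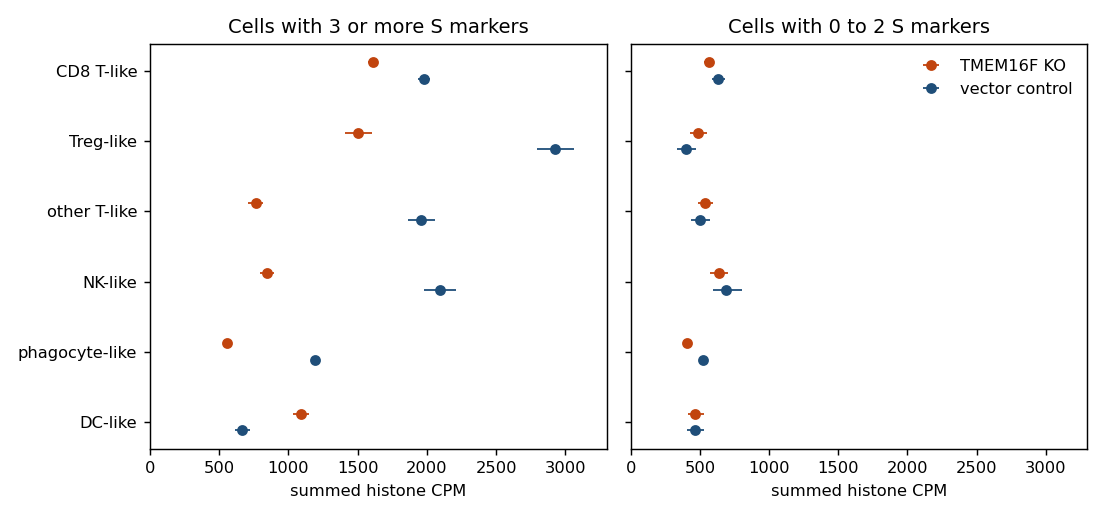
Summed histone CPM of S marker cells and of the other cells in 6 cell classes of the TMEM16F KO and vector control libraries, with 95% counting intervals as bars. In S marker cells the TMEM16F KO value lay below the vector control value in 5 classes and above it in DC-like cells (1091 and 666 CPM), while in the other cells the 2 values lay closer together.

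In phagocyte-like cells, 40 of 59 histone genes with at least 20 UMIs were at least 1.5-fold lower in the TMEM16F KO library and 0 that much higher. The background over all genes of the class was 6.3% lower and 8.87% higher. H2ac24 was read at 46.2 and 162 CPM (ratio 0.285), H2ac4 at 5.05 and 19.8 CPM (ratio 0.255, 0.211-0.307), and H2bc14 at 1.02 and 4.27 CPM (ratio 0.240). H2ac12 had the lowest ratio, 0.138, on 4 and 29 UMIs. H1f2 was read at 58.5 and 63.9 CPM (ratio 0.915), H4c16 at 9.54 and 8.57 CPM (ratio 1.11) and H2ac25 at 31.0 and 20.9 CPM (ratio 1.49, 1.34-1.65). Phagocyte-like cells with over 10 S markers were 5.69% (4.87-6.60) of the class in the TMEM16F KO library and 11.7% (10.5-12.9) in the vector control, and they were read at 1092 and 2261 CPM (ratio 0.483). At every number of markers the TMEM16F KO value was the lower, with ratios from 0.737 to 0.820 up to 10 markers. The other phagocyte-like cells had median depths of 5805 and 3754 UMIs, and the part of this gap in their ratio of 0.783 was not tested. Cluster 13 of the clustering, led by the mitotic gene Cdca3 and H2ac24, held 105 TMEM16F KO and 331 vector control cells. The cluster of shallow barcodes held 45 TMEM16F KO and 396 vector control phagocyte-like cells. Without that cluster the ratio of the class was 0.497 (0.486-0.507).

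In CD8 T-like cells the libraries differed mainly in how many cells carried many S markers. Cells with over 10 markers were 11.7% (9.73-13.9) of the class in the TMEM16F KO library and 21.7% (18.7-24.9) in the vector control. Within them the levels were close, at 3211 and 3393 CPM (ratio 0.946, 0.911-0.983), the smallest gap below 1 of the 6 classes in such cells. With 6 to 10 markers the TMEM16F KO level was the higher, at 1367 and 1010 CPM (ratio 1.35, 1.24-1.48). Of 52 genes, 20 were at least 1.5-fold lower and 2 that much higher, against 8.01% and 8.26% of all genes in the class. The lowest ratios were those of H2bc22 (0.416, on 8 and 16 UMIs), H2ac4 (15.5 and 33.3 CPM, ratio 0.466) and H4c12 (ratio 0.488). H2bc4 was read at 120 and 84.6 CPM (ratio 1.42, 1.26-1.60), H1f2 at 101 and 65.0 CPM (ratio 1.56, 1.37-1.79) and H2ac25 at 8.06 and 4.56 CPM (ratio 1.77). The summed macrophage markers in the same CD8 T-like cells were 2336 CPM in TMEM16F KO and 990 CPM in vector control cells, a ratio of 2.36, and their part in these 3 genes was not tested.

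Treg-like, other T-like and NK-like cells showed lower histone levels in the TMEM16F KO library as S marker cells, and values with overlapping intervals or near level elsewhere. S marker cells were read at 1503 and 2929 CPM in Treg-like (ratio 0.513), 763 and 1961 CPM in other T-like (ratio 0.389) and 843 and 2092 CPM in NK-like cells (ratio 0.403). In the other cells of these classes the ratios were 1.22 (0.987-1.53), 1.08 (0.911-1.28) and 0.918 (0.764-1.11). These classes rest on few cells: over 10 markers were found in 21 and 24 Treg-like, 22 and 23 other T-like, and 27 and 20 NK-like cells. The highest single cell held 301 histone UMIs among 1514 in vector control NK-like cells. Without the 5 cells with the most histone UMIs in each library the ratio was 0.709 in NK-like, 0.600 in other T-like and 0.590 in Treg-like cells.

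By member, 21 of 29 genes in Treg-like cells were at least 1.5-fold lower and 1 higher (background 9.63% and 9.82%). In other T-like cells these were 22 and 2 of 31 (background 9.96% and 10.7%), and in NK-like cells 21 and 3 of 31 (background 7.36% and 15.9%). In Treg-like cells the lowest ratios were those of H2bc14 (0.198), H2ac10 (0.199) and H3c3 (17.6 and 68.7 CPM, 0.256). H2bc4 (1.20), H2bc8 (1.48) and H2ac25 (4.98, on 18 and 3 UMIs) had the highest. In other T-like cells H3c7 (0.097, on 3 and 22 UMIs), H2bc15 (0.143) and H2ac8 (29.9 and 144 CPM, 0.208) were lowest, and H1f2 (1.40), H4c16 (1.94) and H4c17 (2.14) highest. In NK-like cells H2ac4 (0.173), H1f1 (0.177) and H2ac8 (41.0 and 223 CPM, 0.184) were lowest, and H2ac18 (1.51), H2bc4 (119 and 73.2 CPM, 1.62) and H2ac25 (2.84) highest. The same kind of member thus stood at each end in several classes, H2ac4 and H2ac8 low and H2bc4 and H2ac25 high. Macrophage markers summed to 2.21 times the vector control level in Treg-like, 1.83 times in other T-like and 1.65 times in NK-like cells on the TMEM16F KO side, and their part was not tested.

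DC-like cells went the other way. Of 20 histone genes, 9 were at least 1.5-fold higher in the TMEM16F KO library and 1 lower, against 9.43% and 6.62% of all genes in the class. H2ac24 was read at 124 and 70.9 CPM (ratio 1.75, 1.37-2.23) and H1f5 at 115 and 63.6 CPM (ratio 1.81, 1.40-2.34). The largest ratios were those of H3c3 (16.1 and 4.34 CPM, ratio 3.71), H3c6 (ratio 2.79) and H2ac20 (ratio 2.57, 1.08-7.03), each on under 40 UMIs. H4c16 (ratio 0.604), H2ac4 (0.919) and H3c4 (1.01) had the lowest. S marker cells were read at 1091 and 666 CPM (ratio 1.64, 1.49-1.80), and the other cells together at 468 and 467 CPM (ratio 1.00, 0.836-1.20). The other cells held opposite values: 657 and 326 CPM with no marker (23 and 24 cells, ratio 2.02, 1.35-3.07) and 401 and 506 CPM with 1 to 2 markers (ratio 0.794, 0.642-0.981). Only 26 and 16 DC-like cells had over 10 markers, 16.8% (11.3-23.6) and 13.3% (7.82-20.7) of the class, with overlapping intervals. The highest single cell held 181 of 1739 histone UMIs in TMEM16F KO and 101 of 825 in vector control DC-like cells. The T cell markers in DC-like cells summed to 606 CPM (TMEM16F KO) and 249 CPM (vector control), a ratio of 2.43, and their part in the result was not tested. With no barcode left out as a doublet, the ratio was 1.27.

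Neutrophil-like cells, a type that has left the cell cycle, gave a view of the level in a class without S marker cells. None of 40 TMEM16F KO and 16 vector control neutrophil-like cells had 3 S markers (exact upper bounds 8.81% and 20.6%). These cells were shallow, at median depths of 1738 and 2036 UMIs, and the number of markers seen moves with depth. The part of depth in this absence was not tested. The histone level of the neutrophil-like cells was 817 (652-1010) and 494 (313-741) CPM, on 85 and 23 UMIs. All cells with under 3 markers were read at 452 and 534 CPM, so the TMEM16F KO interval lay above the 452 CPM of its own library and the vector control interval included the 534 CPM of its own. How much of either level was free RNA from other cells was not tested.

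Histone genes outside the rule, which include replacement variants made throughout the cell cycle and ending in a poly(A) tail, moved less on the whole. Of the 9 with at least 50 UMIs, 2 were at least 1.5-fold lower and 0 higher, with a median log2 ratio of -0.21. The linker variants H1f10 (5.19 and 14.7 CPM, ratio 0.352, 0.302-0.409) and H1f0 (48.8 and 76.1 CPM, ratio 0.641) were lowest, followed by the DNA damage variant H2ax (58.7 and 84.2 CPM, ratio 0.697). H3f3a, at 1364 and 1311 CPM (ratio 1.04), and H3f3b, at 3759 and 3540 CPM (ratio 1.06), both encode H3.3 and were near level. Each of the 2 had a higher CPM than the 67 replication-dependent genes together in both libraries. The chemistry captures the 2 kinds of transcript differently, so this is a comparison of 3' tags and not of mRNA amounts.

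Genes that make and process histone mRNA were close to level. Of 22 with at least 50 UMIs, 0 passed a fold of 1.5 in either direction, 19 were below a ratio of 1, and the median log2 ratio was -0.15. Slbp, which encodes the stem-loop binding protein, was read at 95.9 and 105 CPM (ratio 0.913, 0.876-0.952). The lowest were Lsm11 of the U7 particle that cuts histone mRNA (6.54 and 9.07 CPM, ratio 0.721), Snrpf (298 and 380 CPM, ratio 0.783) and Snrpe (ratio 0.800). Npat, the activator of histone gene transcription, was read at 11.8 and 11.1 CPM (ratio 1.06, 0.939-1.20). Of 20 histone chaperone and assembly genes, 2 were at least 1.5-fold lower and 0 higher, with a median of -0.19. These were Asf1b (19.9 and 33.2 CPM, ratio 0.599) and Chaf1a (6.98 and 11.6 CPM, ratio 0.603), which hand new H3 and H4 to replicated DNA, followed by Chaf1b (ratio 0.670). The background for genes with at least 50 UMIs was 6.72% lower and 5.46% higher. Over those genes the median log2 ratio was 0.02, and the share below a ratio of 1 is not given here.

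The phase markers themselves gave the frame for these values. All 30 S phase genes were below a ratio of 1 in the TMEM16F KO library, 21 of them by at least 1.5-fold, with a median log2 ratio of -0.69. All 26 G2/M genes were below 1, 23 by at least 1.5-fold, with a median of -0.83. The lowest were Exo1, Uhrf1 and Hells for S phase (ratios 0.494, 0.499 and 0.499) and Anln, Nek2 and Plk1 for G2/M (ratios 0.360, 0.471 and 0.498). Within the cells with over 10 S markers, which were selected on these genes, 0 of 30 S phase and 1 of 26 G2/M genes were that much lower, with medians of -0.09 and -0.16. In those cells the summed histone ratio was 0.664, as given above. In DC-like cells the S phase median was 0.25 and the G2/M median 0.36, on the same side as the histone genes of that class.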

How the data were processed

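The authors deposited raw UMI counts per gene and barcode for 2 libraries of 10x 3' v3.1 chemistry, and per the file headers these came from Cell Ranger 8.0.0. The submitters' processing notes name mm10 and Seurat 3.1.1, without a role. Barcodes were kept from 200 genes upward if mitochondrial UMIs were below 20%. Scrublet's own threshold called 0 doublets in both libraries, so a fixed share of 0.8% per 1000 barcodes was dropped by score (221 vector control and 287 TMEM16F KO barcodes). CPM is UMIs summed over cells, per 1000000 UMIs of all genes. Intervals are exact at 95% (Poisson, Clopper-Pearson, conditional binomial).

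A cell's class was its highest mean marker score, from at least 3 detected markers and 1.25 times the next lineage. CD8 T-like cells had Cd8a or Cd8b1 and neither Cd4 nor Foxp3, and Treg-like cells had Treg markers. These thresholds were set after the data were seen. Cells within 1.1 times of the lead numbered 74 and 55 for phagocyte-like, 18 and 8 for CD8 T-like and 13 and 3 for DC-like cells (TMEM16F KO, vector control). Median T scores were 0.372 and 0.320 in CD8 T-like cells, against phagocyte scores of 0.046 and 0.033. Clusters were made with scanpy 1.11.5 and leidenalg 0.10.2.

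The members and lists were chosen with earlier results of these data known. Named genes are the 20 members with the most UMIs, the 3 largest folds in each direction per class (at least 20 UMIs), and the 3 largest folds per pathway list (at least 50 UMIs); others named were chosen after their values were seen. Protein sequences were not used here, so identity between members was not computed. Alternatives covered doublets, depth, thinning, CPM scale, class rules, S marker minimum, single cells and single members.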

Additional observations from a re-analysis of the deposited data

Results flagged for a closer look

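The histone level of DC-like cells stood out because it lay on the opposite side of the comparison from every other class of at least 50 cells per library. Its ratio, TMEM16F KO over vector control, was 1.52 (1.39-1.65), whereas the ratios were 0.456 to 0.777 in NK-like, other T-like, Treg-like, phagocyte-like and CD8 T-like cells. With 1 library per group, the difference between classes was not tested.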

How the results depend on the processing

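No paired analysis was possible because each group was 1 library. None of the alternatives turned a ratio whose interval lay off 1 to the other side of 1, and the cause of the moves below was not tested. With no barcode left out as a doublet, the histone ratios (TMEM16F KO over vector control) were 0.546 in other T-like, 0.390 in NK-like and 1.27 in DC-like cells. CPM without mitochondrial, ribosomal protein and haemoglobin genes gave ratios of 0.567 over all cells, 0.748 in CD8 T-like, 0.482 in phagocyte-like, 0.568 in S marker and 0.820 in other cells. The mean over cells of the per-cell CPM gave 0.718 over all cells, 0.847 in CD8 T-like, 0.651 in Treg-like, 0.720 in other T-like, 0.626 in NK-like, 0.579 in phagocyte-like, 1.30 in DC-like and 0.667 in S marker cells. Thinning to 2000 UMIs gave 0.698 over all cells, 0.828 in S marker cells and 0.779 in other cells. A stricter lead gave 0.820 in CD8 T-like and 0.391 in NK-like cells. Classes from clusters gave 0.699 in CD8 T-like, 0.625 in Treg-like and 1.34 in DC-like cells, with 3 Treg-like members higher, and no class of NK-like or other T-like cells. Without the 5 cells with the most histone UMIs, ratios were 0.590 in Treg-like, 0.600 in other T-like and 0.709 in NK-like cells. Without the member with the most UMIs, H2ac24 in each of these comparisons, they were 0.629 over all cells, 0.496 in NK-like, 0.544 in phagocyte-like and 0.624 in S marker cells.

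The ratio of S marker cell shares was 0.894 in CD8 T-like, 1.01 in other T-like, 0.956 in NK-like and 0.838 in phagocyte-like cells. Thinning gave 0.712 in CD8 T-like, 0.646 in NK-like and 0.465 in phagocyte-like cells. For phagocyte-like cells it was 0.763 with classes from clusters, 0.766 without the cluster of shallow barcodes (an alternative chosen after seeing the data) and 0.952 with at least 2 markers. With at least 5 markers it was 0.747 in CD8 T-like, 0.751 in other T-like and 0.625 in phagocyte-like cells, and the histone ratio in S marker cells was 0.632. With over 10 markers, also chosen after seeing the data, it was 0.540, 0.627, 0.618 and 0.488 in CD8 T-like, other T-like, NK-like and phagocyte-like cells, and the histone ratio in S marker cells was 0.664.

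The histone level of S marker cells over other cells was 1.86 for TMEM16F KO and 2.69 for vector control cells. It was 1.95 and 2.88 in cells of at least 2000 UMIs, 1.50 and 1.89 as a mean over cells, 3.71 and 3.49 after thinning, 1.58 and 2.31 with at least 2 markers, 2.64 and 3.60 with at least 5, 3.56 and 4.57 with over 10, and 2.11 and 2.36 without the member with the most UMIs in that library, H2bc4 for TMEM16F KO and H2ac24 for vector control. Without H2ac24 in both libraries, chosen after seeing the data, it was 1.70 and 2.36. The order of the libraries thus turned after thinning. The median share of a member's UMIs in S marker cells was 79.2%, against 38.9% after thinning and 53.7% with over 10 markers. The share of the UMIs of all genes in such cells moved with the rule too. It was 63.5% by the main rule and 22.4% with over 10 markers. After thinning every cell held 2000 UMIs, so it was 11.8% for TMEM16F KO and 19.0% for vector control cells. The members at least 1.5-fold lower and higher were also counted with at least 50 UMIs per gene. In Treg-like cells they were 11 and 0 of 14 (all genes 5.46% and 5.69%). In other T-like cells they were 8 and 0 of 13 (all genes 5.79% and 7.81%). In NK-like cells they were 6 and 1 of 11 (all genes 3.61% and 11.7%). In DC-like cells they were 0 and 3 of 9 (all genes 3.21% and 5.51%). Depth limits what can be said of members with few UMIs in a class, and 1 library per group limits every comparison between the groups.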
